A study of Homo sapiens with 105 samples.

Results

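SOD2, the mitochondrial superoxide dismutase, was the only 1 of these oxidant enzymes that changed over 2-fold past the test in vaginal epithelial cells. It rose with TNF-α, Pam3CSK4, MALP2 and imiquimod, by 2.43-fold to 5.46-fold in the probeset that names it alone. The rise with imiquimod, the smallest, did not pass in limma in that probeset without the first 3 imiquimod arrays (adjusted p = 0.18). It also did not pass with arrays of consecutive replicate numbers treated as a random block (adjusted p = 0.094). With that block and 1 control array left out, a choice made after seeing the data, the limma adjusted p was 0.037. The 9 genes described here are the superoxide dismutases SOD1, SOD2 and SOD3, catalase (CAT), the dual oxidases DUOX1 and DUOX2, their maturation factors DUOXA1 and DUOXA2, and the inducible nitric oxide synthase NOS2. Their members were every probeset whose platform annotation lists 1 of these genes, 16 of the 54675 on an array. These cover 8 genes, and DUOXA1 had none. SOD2 has 5 probesets, CAT and DUOX1 have 3 each, and the others have 1 each.

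The RNA came from Vk2/E6E7 cells, a line of human vaginal epithelium immortalized with the E6 and E7 genes of a papillomavirus, maintained in a serum-free keratinocyte medium. All cells were harvested after 6 h and measured on Affymetrix U133 Plus 2.0 arrays. The pro-inflammatory compounds (PICs) were the cytokine TNF-α at 40 ng/ml (5 arrays used), the TLR2 lipopeptides Pam3CSK4 at 10 μg/ml (6 arrays) and MALP2 at 200 ng/ml (6 arrays), the TLR7 ligand imiquimod (IMQ, 6 arrays) and the detergent nonoxynol-9 (N-9) at 12.5 μg/ml (9 arrays). The dose of imiquimod stands as 30 mg/ml in the labels and as 30 μg/ml in the methods. The non-inflammatory compounds (NICs) were the gels hydroxyethyl cellulose (HEC) and carboxymethyl cellulose (CMC), each at 1 mg/ml with 9 arrays, and the control was growth medium alone (GM), with 53 arrays used.

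Superoxide dismutases turn superoxide into hydrogen peroxide, SOD1 in the cytosol with copper and zinc, SOD2 in mitochondria with manganese, and SOD3 outside the cell. Catalase breaks hydrogen peroxide down to water and oxygen. DUOX enzymes sit in the apical membrane of mucosal epithelia and release hydrogen peroxide to the surface, where heme peroxidases use it against microbes, and they leave the endoplasmic reticulum only with a DUOXA partner. NOS2 makes nitric oxide in inflamed tissue, and SOD2 is a classic target gene of NFκB.

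Of the 105 arrays 2 were left out. The values of TNF-α replicate 6 are the average of replicates 1, 2 and 3 of that group (largest deviation 7.7e-09), and GM replicate 52 correlates with every other array at 0.048 or less, while all other pairs reach 0.835. The values are log2 signals, quantile normalized, and a group mean under 6.60, the median over all tested probesets, is called dim. Calls needed both a fold over 2 and a limma p under 0.05 after Benjamini-Hochberg adjustment over 54613 probesets, and passing the test needed only that p. All 6 measured markers of stratified epithelium (of 8 listed) were above 6.60 in every group, and their summed linear signal lay between 81096 and 113513 on the treated arrays and between 71403 and 115779 on the GM arrays. The 7 measured leukocyte markers summed to between 375 and 1051 on the treated arrays and between 426 and 1322 on the GM arrays, and 2 of the 7, CD14 (log2 -1.59, adjusted p = 0.025) and CSF1R (log2 -0.73, adjusted p = 0.0023), fell with imiquimod. Of the epithelial markers DSP, a desmosome protein, rose with imiquimod (log2 0.31, adjusted p = 0.044). With 1 probeset a gene, 7.04% of all genes fell and 6.89% rose with imiquimod. With the random block described next none of CD14, CSF1R and DSP passed in limma (adjusted p = 0.16 for CD14, 0.053 for CSF1R and 0.13 for DSP). The 9 fibroblast and endothelium markers summed to between 1167 and 4808 on the treated arrays, with medians of 4014 for Pam3CSK4 and 3524 for MALP2, and to between 1234 and 5607 in GM, with a median of 2499.9. In limma 0 of the 9 passed with any treatment, and at most 2 had an unadjusted p under 0.05. Of these 9, 3 had a mean above 6.60 in every group. So did 1 (imiquimod) to 4 (CMC) of the 7 leukocyte markers and 0 (TNF-α, N-9 and CMC) to 2 (MALP2) of 3 measured melanocyte markers. The part of these markers in the results was not tested. Arrays of 3 consecutive replicate numbers of a group lay close together, and a random block for them had a correlation of 0.44. The labels number biological replicates without naming separate cultures, and the p-values therefore reflect only how far these arrays scatter, possibly for technical reasons.

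The array labelled GM replicate 15 was closer to TNF-α replicates 1 to 3 than to any GM array. Its 3 closest arrays over all tested probesets were TNF-α replicates 3, 1 and 2 (r = 0.940, 0.939 and 0.935), and the closest GM array reached 0.933. CMC replicates 4 and 6 and HEC replicates 7 and 9 also ranked above the closest GM array. Of the 53 GM arrays it was the only 1 whose closest array was a TNF-α array. For 42 the closest was another GM array, and for 10 it was an HEC or CMC array. It was the highest GM array in all 5 SOD2 probesets. In 215223_s_at it read 11.73, against 8.25 to 9.78 on the other GM arrays, and the 5 TNF-α arrays read between 11.58 and 11.88. CCL20, a chemokine gene that TNF-α induces, read 11.25 on it, with 10.26 to 11.65 on the TNF-α arrays and 2.69 to 9.71 on the other GM arrays. CCL20 was picked for this check after its values were seen. The array stayed in GM in the main comparison, and the main SOD2 changes are also given without it.

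**Figure D1:**
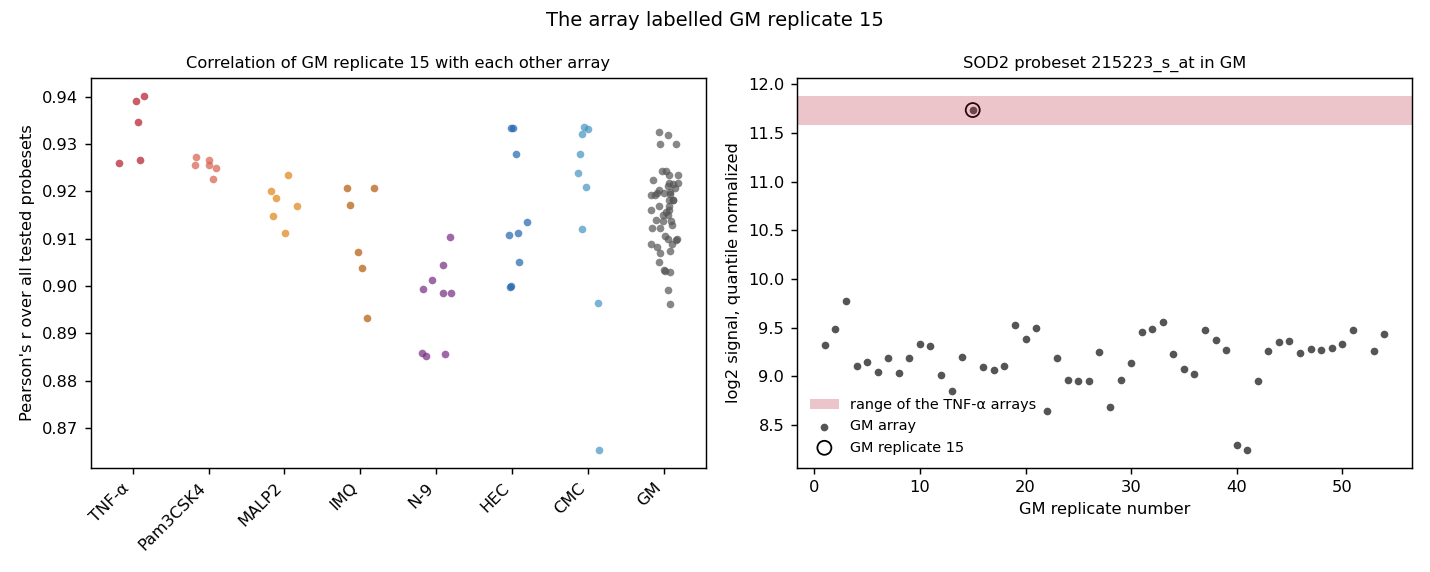
Left, Pearson's r between the array labelled GM replicate 15 and each other array (points) over all tested probesets, by group; TNF-α replicates reach the highest value, 0.940. Right, log2 signal of SOD2 probeset 215223_s_at against the GM replicate number, with the range of the TNF-α arrays shaded from 11.58 to 11.88; only replicate 15, at 11.73 (circled), lies in it, and the next highest GM array is at 9.78.

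SOD2 rose with TNF-α, Pam3CSK4, MALP2 and imiquimod and was not called with the NIC gels. Its gene lies on chromosome 6 from 159669069 to 159762281 (minus strand, GRCh38.p14). Only probeset 1566342_at names SOD2 alone. The other 4 (215223_s_at, 216841_s_at, 221477_s_at and 215078_at) list SOD2 together with SOD2-OT1, a long noncoding RNA for which RefSeq gives SOD2 as a synonym. SOD2-OT1 lies over the upstream end of the same locus, from 159760258 to 159762332. The signal of these 4 therefore cannot be assigned to either transcript from the annotation.

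In 1566342_at the 5 TNF-α arrays read 11.84, 11.70, 11.75, 12.85 and 12.82. The lowest, median and highest values were 12.20, 12.68 and 13.31 with Pam3CSK4, 11.76, 12.40 and 12.86 with MALP2, and 11.33, 11.48 and 11.86 with imiquimod. They were 9.01, 9.85 and 11.28 with N-9, 9.32, 9.92 and 11.47 with HEC, 8.89, 10.53 and 10.93 with CMC, and 7.15, 10.35 and 11.74 in GM. Every array of TNF-α, Pam3CSK4 and MALP2 was above the highest GM array other than replicate 15 (11.48), as were 3 of 6 imiquimod arrays and none with N-9, HEC or CMC. With replicate 15 kept (11.74), 4 of 5 TNF-α, 6 of 6 Pam3CSK4, 6 of 6 MALP2 and 1 of 6 imiquimod arrays were above every GM array. Arrays of 3 consecutive numbers stood together here too, with 12.20 to 12.27 on Pam3CSK4 replicates 1 to 3 and 13.10 to 13.31 on replicates 4 to 6.

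The change of 1566342_at was log2 2.45 (SE 0.33, 5.46-fold, adjusted p = 7.3e-08) with Pam3CSK4 and log2 2.13 (SE 0.33, 4.38-fold, adjusted p = 8.8e-07) with MALP2. It was log2 1.94 (SE 0.36, 3.83-fold, adjusted p = 0.00037) with TNF-α and log2 1.28 (SE 0.33, 2.43-fold, adjusted p = 0.0039) with imiquimod. With N-9 it was log2 -0.34 (95% interval -0.89 to 0.21, adjusted p = 0.45), with HEC -0.02 (-0.57 to 0.53) and with CMC 0.02 (-0.52 to 0.57). Without GM replicate 15 the changes were log2 2.48, 2.16, 1.97 and 1.31 with Pam3CSK4, MALP2, TNF-α and imiquimod, and all 4 still passed. In limma with the random block for consecutive numbers the adjusted p was 0.00052 (Pam3CSK4), 0.0011 (MALP2), 0.027 (TNF-α) and 0.094 (imiquimod). The rise with imiquimod therefore did not pass with the block. With the block and without GM replicate 15, a setting chosen after seeing the data, it passed (log2 1.33, adjusted p = 0.037).

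**Figure D2:**
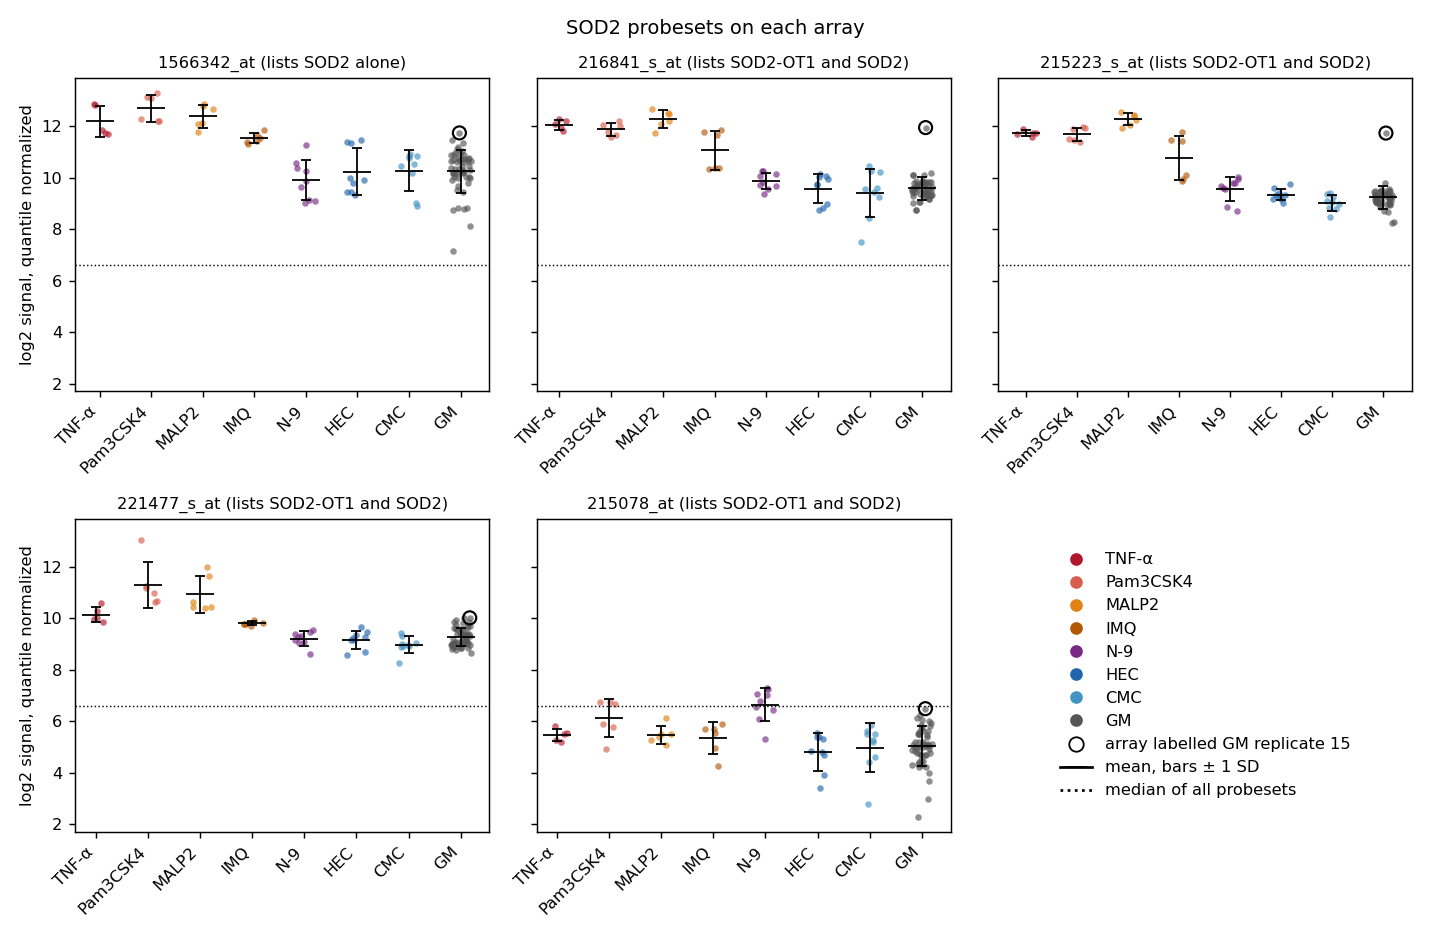
Log2 signal of each SOD2 probeset (panels) on each array (points) of the 7 treatments and GM, with group means and ± 1 SD; the dotted line is the median of all probesets and the circle marks GM replicate 15. In 1566342_at the Pam3CSK4 arrays sit between 12.20 and 13.31 and the GM arrays between 7.15 and 11.74, while 215078_at is highest with N-9, at a mean of 6.64.

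Of the probesets shared with SOD2-OT1, 215223_s_at had all imiquimod arrays above the GM arrays other than replicate 15. In it the TNF-α arrays read 11.58, 11.74, 11.75, 11.71 and 11.88. The lowest, median and highest were 11.39, 11.69 and 11.96 with Pam3CSK4, 11.92, 12.33 and 12.55 with MALP2, 9.88, 10.76 and 11.78 with imiquimod, 8.69, 9.68 and 10.01 with N-9, and 8.25, 9.24 and 11.73 in GM. Every array of TNF-α, Pam3CSK4, MALP2 and imiquimod lay above every GM array other than replicate 15, as did 4 of the 9 N-9 arrays. With replicate 15 kept, 3 of 5 TNF-α, 3 of 6 Pam3CSK4, 6 of 6 MALP2, 1 of 6 imiquimod and 0 of 9 N-9 arrays lay above every GM array. The changes were log2 3.04 (SE 0.19, 8.24-fold) with MALP2, 2.50 (SE 0.20, 5.67-fold) with TNF-α, 2.46 (SE 0.19, 5.50-fold) with Pam3CSK4 and 1.53 (SE 0.19, 2.90-fold) with imiquimod, at adjusted p of 3.7e-10 or less. Without GM replicate 15 they were log2 3.09, 2.55, 2.51 and 1.58. Probeset 216841_s_at gave log2 2.69, 2.47, 2.29 and 1.48 in the same order of treatments. Probeset 221477_s_at gave 2.02 with Pam3CSK4 and 1.66 with MALP2, but 0.87 (adjusted p = 0.0065) with TNF-α and 0.52 (adjusted p = 0.04) with imiquimod, both under 2-fold and neither past the test with the random block for consecutive numbers (adjusted p = 0.28 and 0.39).

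With N-9 only 215078_at passed the test. Probeset 215078_at, dim in GM, had a lowest, median and highest value of 5.30, 6.80 and 7.30 with N-9 and of 2.27, 5.06 and 6.49 in GM, a change of log2 1.62 (SE 0.26, 3.08-fold, adjusted p = 8.8e-07), and 7 of the 9 N-9 arrays lay above every GM array other than replicate 15. With replicate 15 kept, 6 of the 9 did. The change of 215078_at was log2 1.10 (SE 0.32, adjusted p = 0.038, 2.15-fold) with Pam3CSK4, and with TNF-α, MALP2 and imiquimod it was 0.45, 0.46 and 0.32, none past the test. The other 4 probesets had log2 changes of -0.34 to 0.32 with N-9, at adjusted p of 0.17 or more. Without GM replicate 15, 215078_at was at log2 1.65 with N-9 and 1.13 with Pam3CSK4, both still called, and the change of 215223_s_at with N-9 was log2 0.36 and passed (adjusted p = 0.036), under 2-fold. With the random block for consecutive numbers the call of 215078_at held with N-9 (adjusted p = 0.0036) and was lost with Pam3CSK4 (adjusted p = 0.63). With the block and without GM replicate 15, 215223_s_at did not pass with N-9 (adjusted p = 0.17) and 215078_at did not pass with Pam3CSK4 (adjusted p = 0.55).

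**Figure D3:**
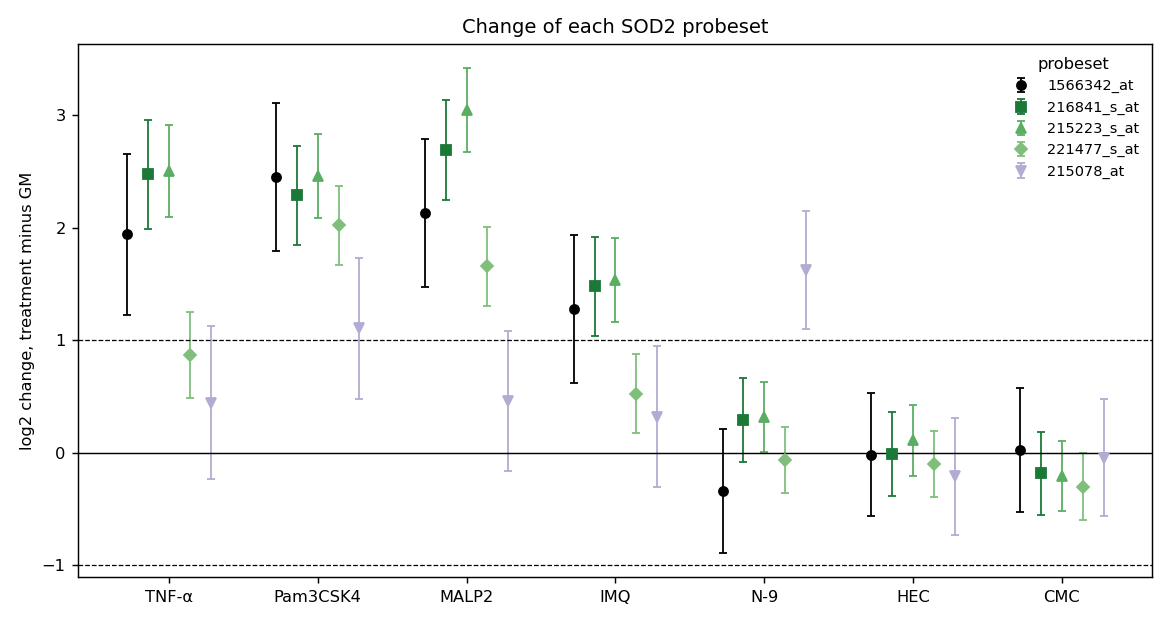
Log2 change against GM (treatment minus GM) of the 5 SOD2 probesets (symbols, in the order of the legend from left to right) for each treatment, with 95% intervals from limma; dashed lines mark a 2-fold change. With N-9 only 215078_at, at 1.62, lies past the upper dashed line, and with HEC and CMC all 5 lie between -0.30 and 0.11.

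The calls for imiquimod depended on the first 3 of its 6 arrays. In 215223_s_at imiquimod replicates 1 to 3 averaged 11.55 and replicates 4 to 6 averaged 9.98, and in 216841_s_at they averaged 11.76 and 10.37, whereas in 1566342_at they averaged 11.68 and 11.38. The same first 3 arrays had a 3′ minus 5′ difference of the ACTB control probesets, a sign of RNA degradation, of log2 1.27, 0.90 and 2.17, against 0.53, 0.48 and 0.36 on replicates 4 to 6, and GM averaged 0.43 ± 0.28 (SD, n = 53). Its part in the result was not tested. With replicates 4 to 6 alone the changes were log2 1.13 (adjusted p = 0.18) in 1566342_at, 0.75 (adjusted p = 0.046) in 215223_s_at and 0.78 (adjusted p = 0.13) in 216841_s_at. None of the 16 member probesets was then called by limma, 4 had an unadjusted p under 0.05, and 2.3% of all probesets were called. With replicates 1 to 3 alone they were log2 1.43 (adjusted p = 0.031), 2.32 and 2.17. A random block for consecutive numbers gave 1566342_at a limma adjusted p of 0.094 with imiquimod, and of 0.037 when GM replicate 15 was also left out.

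Of the 16 member probesets, TNF-α called 3, where 0.386% of all probesets were called and 0.298% in the higher direction. Pam3CSK4 called 5 (0.732% of all, 0.588% higher), MALP2 4 (2.2% of all, 1.34% higher), imiquimod 3 (3.43% of all, 1.73% higher) and N-9 1 (4.35% of all, 2.26% higher). All of these were SOD2 probesets, and all were higher with the treatment. None was called with HEC (0.319% of all, 0.0952% higher) or CMC (0.00183% of all), where limma gave an unadjusted p under 0.05 to 1 and 2 of them and the analysis of variance named in the methods also called 0. These probesets share a gene and are not independent of each other, and the 7 treatments share their GM arrays. Without GM replicate 15 the 7 counts were the same, with 0.439% (TNF-α), 0.749% (Pam3CSK4), 2.23% (MALP2), 3.45% (imiquimod), 4.37% (N-9), 0.339% (HEC) and 0.00183% (CMC) of all probesets called. With the random block for consecutive numbers the called members numbered 3 for TNF-α (0.15% of all), 4 for Pam3CSK4 (0.286% of all), 4 for MALP2 (1.21% of all), 2 for imiquimod (2.02% of all) and 1 for N-9 (2.37% of all). With HEC and CMC the block left 0 calls among all probesets in limma.

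The order of the group means of 1566342_at was Pam3CSK4 (12.70), MALP2 (12.38), TNF-α (12.19), imiquimod (11.53), CMC (10.28), GM (10.25), HEC (10.24) and N-9 (9.91). Of neighbours in this order, only imiquimod and CMC differed past the test (log2 1.25, adjusted p = 0.030). In 215223_s_at the order was MALP2 (12.27), TNF-α (11.73), Pam3CSK4 (11.69), imiquimod (10.76), N-9 (9.55), HEC (9.34), GM (9.23) and CMC (9.02), with Pam3CSK4 over imiquimod (log2 0.93, adjusted p = 0.020) and imiquimod over N-9 (log2 1.22, adjusted p = 7e-05) past the test. All 21 pairs of treatments were tested, without the random block for consecutive numbers. Imiquimod lay below TNF-α by log2 0.97 (SE 0.26, adjusted p = 0.026) and below MALP2 by log2 1.51 (SE 0.25, adjusted p = 2.4e-05) in this probeset.

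Pam3CSK4 and MALP2 are both lipopeptides, Pam3CSK4 with more acyl chains than MALP2, and were used at 10 μg/ml and 200 ng/ml, so their values stand side by side without a comparison of the compounds. SOD2 averaged 12.70 ± 0.53 with Pam3CSK4 and 12.38 ± 0.45 with MALP2 in 1566342_at (SD, n = 6 each), and 11.69 ± 0.26 and 12.27 ± 0.24 in 215223_s_at. The cellulose ethers HEC and CMC were both used at 1 mg/ml. HEC minus CMC was log2 -0.04 (95% interval -0.76 to 0.68, adjusted p = 0.99) in 1566342_at and 0.32 (-0.09 to 0.73, adjusted p = 0.79) in 215223_s_at.

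Over all arrays used the SOD2 probesets moved together to different degrees. Pearson's r was 0.93 between 216841_s_at and 215223_s_at, 0.80 between 1566342_at and 221477_s_at, and 0.19 between 1566342_at and 215078_at. Over the 53 GM arrays alone these values were 0.69, 0.61 and 0.04. All arrays were normalized together, and consecutive numbers are alike, so these are descriptions without a test.

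The stretch before the start of SOD2 is shown because this is the member that rose. RefSeq gives SOD2 4 start sites in the promoter table, at 159693241, 159726950, 159727384 and 159762281. The 250 bases before the first (chr6:159693242-159693491, GRCh38.p14, minus strand, 5′ to 3′), in which capitals mark the GC box GGGCGG, read as follows.
SOD2 upstream: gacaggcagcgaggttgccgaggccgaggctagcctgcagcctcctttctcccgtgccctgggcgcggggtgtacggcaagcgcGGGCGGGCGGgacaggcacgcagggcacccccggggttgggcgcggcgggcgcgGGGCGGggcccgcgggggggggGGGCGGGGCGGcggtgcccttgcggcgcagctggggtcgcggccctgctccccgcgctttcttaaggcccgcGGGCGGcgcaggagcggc
These bases are 80.8% G or C and hold 6 GC boxes, all on the strand shown, with overlaps counted. The GC box was added to the search after the sequence was seen, and 45.0% of all 35116 promoter windows (250 bases before to 50 after a start) hold at least 1 on either strand. None of the 4 SOD2 windows holds the kappa B consensus (in 11.3% of all windows), the AP-1 site TGANTCA (7.71%), the STAT site TTCNNNGAA (7.66%), the antioxidant response element core TGACNNNGC (13.3%) or the TATA box TATAAA (11.53%), on either strand. That says only that these letters are not in these windows.

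Genes whose levels were most like SOD2 (1566342_at) over all arrays used, among probesets with 1 gene and a mean above 6.60, were MCL1 (r = 0.81), an apoptosis inhibitor of the BCL2 family, SGPP2 (0.80), a sphingosine-1-phosphate phosphatase, MARCKS (0.77), a membrane-bound substrate of protein kinase C, LHFPL6 (0.77), MAOA (0.77), a mitochondrial monoamine oxidase that produces hydrogen peroxide, and SNX14 (0.76). Over the 8 group means SGPP2 was closest of these, at r = 0.97, and MCL1 was at 0.81.

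SOD1 and CAT were bright and were not called with any treatment. SOD1 was the brightest member, with group means between 13.61 (imiquimod) and 13.84 (HEC) over the treatments and 13.77 ± 0.15 in GM (SD, n = 53). Its changes lay between log2 -0.16 (SE 0.07, imiquimod, adjusted p = 0.13) and 0.07 (SE 0.06, HEC, adjusted p = 0.53). CAT (201432_at) had changes between log2 -0.22 (SE 0.14, N-9, adjusted p = 0.31) and 0.22 (SE 0.14, CMC, adjusted p = 0.76), with 11.24 ± 0.42 in GM. The N-9 arrays were the most spread, with 9.73, 11.23 and 11.88 as the lowest, median and highest, and averaged 10.06 on replicates 1 to 3, 11.77 on 4 to 6 and 11.22 on 7 to 9. Arrays of the same numbers averaged 10.31, 11.26 and 11.16 in GM and 11.26, 11.27 and 11.28 with HEC. The second CAT probeset, 211922_s_at, had changes between log2 -0.32 and 0.33 and the third, 215573_at, was dim.

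**Figure D4:**
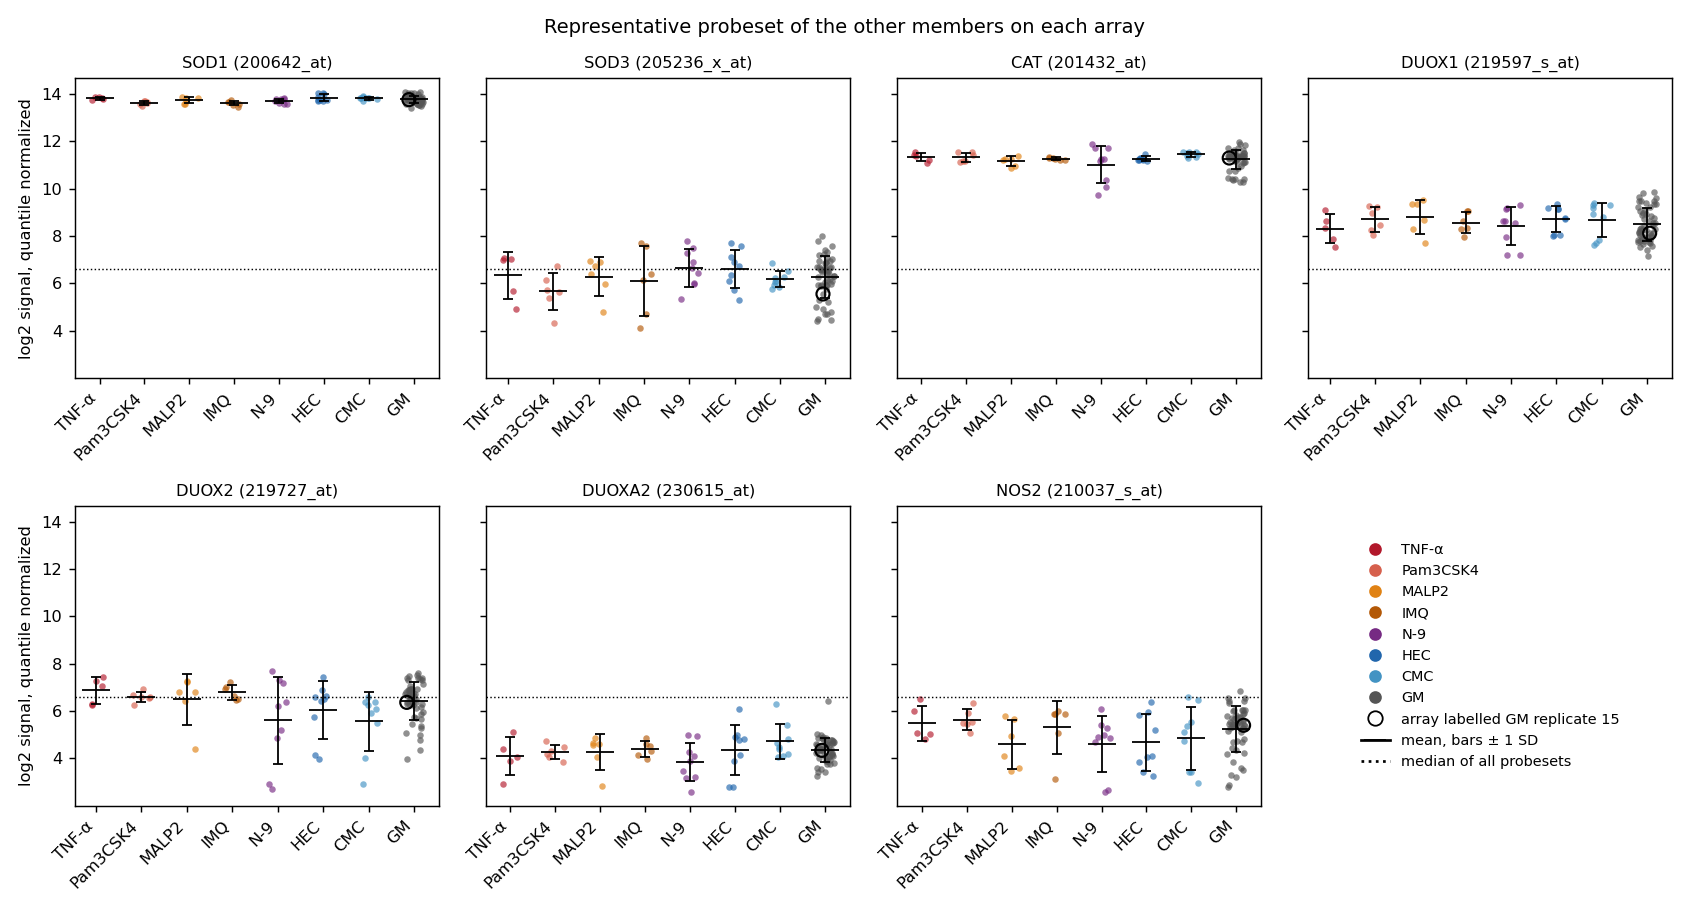
Log2 signal of the representative probeset (the brightest that names the gene alone) of the 7 other measured members on each array (points) of the 7 treatments and GM, with group means and ± 1 SD; the dotted line is the median of all probesets and the circle marks GM replicate 15. SOD1 stays between 13.43 and 14.08, SOD3, DUOXA2 and NOS2 scatter about or under the dotted line, and DUOX2 with N-9 spans 2.72 to 7.69.

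No dual oxidase was called with any treatment. DUOX1 (219597_s_at) was above the median of all probesets in every group, with a mean of 8.49 ± 0.70 in GM and changes between log2 -0.18 (TNF-α) and 0.32 (MALP2), at adjusted p of 0.64 or more. Its second probeset, 215800_at, had a lowest, median and highest value of 5.29, 6.39 and 6.85 with imiquimod and of 5.58, 7.03 and 8.11 in GM, so the groups overlap. It fell by 0.65 on the log2 scale with imiquimod (SE 0.22, adjusted p = 0.035), under 2-fold, while 219597_s_at was at log2 0.07 (95% interval -0.51 to 0.65) and 1565795_at at 0.17 in the same contrast. With the random block for consecutive numbers 215800_at did not pass (adjusted p = 0.30).

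DUOX2 (219727_at) lay near the median of all probesets, at 6.42 ± 0.82 in GM (SD, n = 53). The TNF-α arrays read 7.26, 7.07, 7.45, 6.27 and 6.29. The lowest, median and highest were 6.27, 6.59 and 6.93 with Pam3CSK4, 4.41, 6.81 and 7.28 with MALP2, 6.46, 6.78 and 7.23 with imiquimod, 2.72, 6.19 and 7.69 with N-9, 3.97, 6.51 and 7.44 with HEC, 2.91, 6.10 and 6.61 with CMC, and 3.98, 6.62 and 7.61 in GM. All treatments overlap GM. The change with N-9 was log2 -0.82 (SE 0.35, adjusted p = 0.10) and with CMC -0.86 (SE 0.35, adjusted p = 0.63), and with TNF-α it was 0.45 (95% interval -0.47 to 1.36, adjusted p = 0.87). With N-9, replicates 1 to 3 averaged 7.40, replicates 4 to 6 averaged 3.61 and replicates 7 to 9 averaged 5.81. Arrays of the same numbers averaged 7.26, 6.40 and 5.38 in GM and 6.71, 4.63 and 6.79 with HEC. Leaving out N-9 replicate 1, 2 or 3 gave a limma adjusted p of 0.042, 0.030 or 0.048. With all N-9 arrays and the random block for consecutive numbers the adjusted p was 0.38. DUOX2 was dim both in GM and with N-9 (mean 5.61).

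DUOXA2 (230615_at) was dim in all groups, at 4.35 ± 0.52 in GM, with log2 -0.51 (SE 0.23, adjusted p = 0.12) with N-9 and 0.36 (SE 0.23, adjusted p = 0.74) with CMC. DUOX2 and DUOXA2 lie head to head on chromosome 15, the DUOX2 start at 45114172 on the minus strand and the DUOXA2 start at 45114326 on the plus strand. The 153 bases between them are shown because both genes would share them (chr15:45114173-45114325, GRCh38.p14, plus strand, 5′ to 3′, TATA box in capitals).
DUOX2 to DUOXA2: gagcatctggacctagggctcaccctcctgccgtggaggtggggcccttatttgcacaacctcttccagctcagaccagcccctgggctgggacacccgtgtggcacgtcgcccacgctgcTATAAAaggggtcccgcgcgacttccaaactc
This TATAAA reads toward DUOXA2 and is the only match of the 6 motifs in the windows of either gene. DUOX1 and DUOXA1 are likewise divergent, with starts at 45129994 and 45129879. Over all arrays used DUOX2 and DUOXA2 had r = 0.20, and over the 53 GM arrays -0.08.

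The genes most like DUOX2 over all arrays used were UBE2A (r = 0.76), MAVS (0.74), ARFGEF2 (0.73), SMCR8 (0.72), ACBD5 (0.72) and KDM2A (0.72). Those most like DUOXA2 were SMARCE1 and STK35 (0.55 each), NDUFB9, NDUFA8 and TMEM147-AS1 (0.53 each) and ATP5MG (0.52). UBE2A is a ubiquitin-conjugating enzyme, MAVS the adaptor of the cytosolic RNA sensors, and NDUFB9 and NDUFA8 subunits of mitochondrial complex I.

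SOD3 and NOS2 were dim in GM, at 6.25 ± 0.88 and 5.24 ± 0.96 (SD, n = 53 each). SOD3 changes lay between log2 -0.60 (SE 0.37, Pam3CSK4, adjusted p = 0.56) and 0.39 (SE 0.31, N-9, adjusted p = 0.44). NOS2 changes lay between log2 -0.65 (SE 0.44, MALP2, adjusted p = 0.48) and 0.40 (SE 0.44, Pam3CSK4, adjusted p = 0.80), and the NOS2 arrays read 4.83, 5.01, 5.99, 5.06 and 6.52 with TNF-α, within the GM range of 2.77 to 6.85. In all, the 11 probesets of the 7 members other than SOD2 gave 77 tests against GM, of which 1 passed, 0 were called by limma and 8 had an unadjusted p under 0.05, with changes between log2 -0.86 and 0.45. Of all probesets, those that passed made up 0.72% (TNF-α), 2.17% (Pam3CSK4), 6.95% (MALP2), 10.9% (imiquimod), 17.4% (N-9), 0.793% (HEC) and 0.00183% (CMC).

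GCH1 rose with TNF-α, Pam3CSK4, MALP2 and imiquimod. The oxidant gene lists hold 1 probeset a gene, and of all 19775 genes so represented the share that rose was 0.774% (TNF-α), 1.92% (Pam3CSK4), 5% (MALP2), 6.89% (imiquimod), 6.65% (N-9), 0.298% (HEC) and 0% (CMC). The share that fell was 0.223% (TNF-α), 1.27% (Pam3CSK4), 4.62% (MALP2), 7.04% (imiquimod), 13.2% (N-9), 0.536% (HEC) and 0% (CMC). GCH1 makes the first step of tetrahydrobiopterin synthesis, the cofactor that NOS enzymes need, and was the only 1 of 12 measured genes of nitric oxide synthesis and its cofactors that rose with TNF-α, Pam3CSK4 and MALP2. Its mean was 11.42 ± 0.73 (TNF-α, n = 5), 11.02 ± 0.11 (Pam3CSK4, n = 6), 11.71 ± 0.35 (MALP2, n = 6), 11.49 ± 0.41 (imiquimod, n = 6) and 9.55 ± 0.71 (GM, n = 53; all SD). Its changes were log2 1.87 (SE 0.32, 3.65-fold), 1.47 (SE 0.30, 2.76-fold), 2.16 (SE 0.30, 4.46-fold) and 1.93 (SE 0.30, 3.82-fold), with adjusted p between 2.9e-08 and 0.00092. With N-9 it was at log2 0.22, with HEC at -0.27 and with CMC at -0.37, none past the test. ARG2, the mitochondrial arginase that competes for the substrate of NOS, rose by log2 1.42 (SE 0.38, adjusted p = 0.0048) with imiquimod and 1.09 (SE 0.31, adjusted p = 0.0073) with N-9. NOSIP, a NOS-interacting protein, fell by 0.34 on the log2 scale with N-9 (adjusted p = 0.0074), and did not pass with the random block (adjusted p = 0.086). The list's median change was log2 0.36 for imiquimod, 0.34 for TNF-α, 0.17 for MALP2, 0.05 for Pam3CSK4 and -0.03 for N-9. For HEC and CMC the list's median was -0.07 and 0.06. Over all genes represented in the same way the median lay between -0.05 (N-9) and 0.03 (imiquimod).

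Among the peroxide-reducing enzymes GLRX and TXNRD1 rose and peroxiredoxins fell with some of the treatments. Of 18 measured genes of that list (19 listed), 0 passed with TNF-α, HEC or CMC in limma, where 1, 4 and 3 of them had an unadjusted p under 0.05. Pam3CSK4 lowered 1, MALP2 raised 1 and lowered 2, imiquimod raised 2 and lowered 2, and N-9 raised 1 and lowered 5. Of all genes so represented, the shares raised and lowered were 1.92% and 1.27% (Pam3CSK4), 5% and 4.62% (MALP2), 6.89% and 7.04% (imiquimod) and 6.65% and 13.2% (N-9). The list's median change was log2 -0.17 (Pam3CSK4), -0.15 (imiquimod), -0.13 (MALP2), -0.08 (HEC), -0.06 (TNF-α), -0.05 (CMC) and -0.02 (N-9). Over all genes so represented it lay between -0.05 (N-9) and 0.03 (imiquimod). PRDX3, the mitochondrial peroxiredoxin, fell by 0.33 (adjusted p = 0.0031), 0.39 (adjusted p = 4.5e-05) and 0.49 (adjusted p = 1.1e-07) on the log2 scale with Pam3CSK4, MALP2 and imiquimod, against 13.20 ± 0.15 in GM, and of these 3 falls only that with Pam3CSK4 was lost with the random block (adjusted p = 0.076). GLRX, a glutaredoxin, rose by log2 1.38 (SE 0.29, adjusted p = 0.00042) with MALP2 and 1.29 (SE 0.29, adjusted p = 0.00068) with imiquimod. TXNRD1, the cytosolic thioredoxin reductase, rose by log2 1.13 (SE 0.15, adjusted p = 1.2e-08) with imiquimod and 0.67 (SE 0.13, adjusted p = 3.2e-05) with N-9. GPX8, a peroxidase of the endoplasmic reticulum, fell by 0.99 on the log2 scale with MALP2 (SE 0.19, adjusted p = 0.00012). PRDX1, a cytosolic peroxiredoxin, was the other gene lowered by imiquimod, at log2 -0.18 (adjusted p = 0.049, 0.19 with the block). With N-9 the peroxiredoxins PRDX1, PRDX2, PRDX3, PRDX4 and PRDX6 fell, by 0.17 (PRDX1) to 0.36 (PRDX4) on the log2 scale. With a random block for consecutive numbers PRDX2 and PRDX4 still passed (adjusted p = 0.017 and 0.00012) and PRDX1, PRDX3 and PRDX6 did not (adjusted p = 0.071, 0.14 and 0.19).

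**Figure D5:**
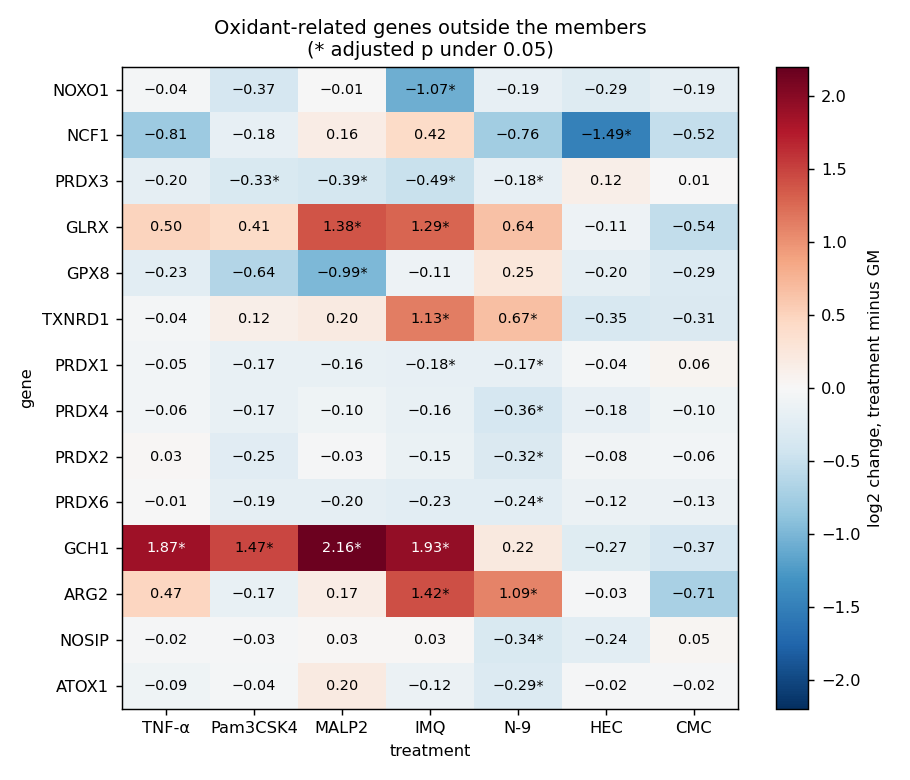
Log2 change (treatment minus GM, colour and printed value) of the named genes of the oxidant lists outside the members, by treatment from TNF-α to CMC; a star marks an adjusted p under 0.05. GCH1 is starred with TNF-α, Pam3CSK4, MALP2 and imiquimod, at 1.87, 1.47, 2.16 and 1.93, and no gene is starred with CMC.

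Of the 12 measured NADPH oxidases and subunits (13 listed), 0 passed in limma with TNF-α, Pam3CSK4, MALP2, N-9 or CMC, and 0, 2, 1, 2 and 0 of them had an unadjusted p under 0.05. NOXO1, the organizer of NOX1, averaged 5.29 ± 1.29 with imiquimod and 6.37 ± 0.90 in GM, a fall of 1.07 on the log2 scale (SE 0.37, adjusted p = 0.046), and NCF1, a subunit of the phagocyte oxidase, averaged 4.23 ± 0.49 with HEC and 5.72 ± 1.01 in GM (log2 -1.49, SE 0.33, adjusted p = 0.018). Both are dim, NCF1 has near-identical pseudogene copies whose transcripts the probes may also bind, and with the block neither passed (adjusted p = 0.36 and 0.57). Of the 6 measured heme peroxidases and copper carriers (7 listed), only ATOX1, a copper chaperone, passed, at log2 -0.29 with N-9 (SE 0.09, adjusted p = 0.011, 0.095 with the block), and with the other treatments 1 gene, with Pam3CSK4, had an unadjusted p under 0.05.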

How the data were processed

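The deposited log2 values come in 1 table for all arrays. Per the submitters' processing notes they are MAS5 signals from GCOS 1.3, while the methods describe RMA, so folds of dim probesets may be larger and noisier than RMA would give. An array's deposited median lay between 6.22 and 7.08. All probesets were quantile normalized, the 62 control probesets were left out, and 54613 were fitted in limma 3.58.1 (R 4.3.3) with 1 mean per group, without a filter, and with Benjamini-Hochberg adjustment for each comparison. The number of arrays limits the precision. Steps were tested on simulated data, in which arrays scattered independently, without the likeness of consecutive numbers seen here.

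The members and gene lists were chosen with earlier results of these data known. A list gene is represented by its brightest probeset that names it alone. Named genes are all member probesets, up to 4 genes per list and treatment with the largest change at adjusted p under 0.05, and the 6 genes most like SOD2, DUOX2 and DUOXA2. Alternatives were another normalization, offset, filter, block, control set and test, and leaving out arrays. Promoters are RefSeq's (GRCh38.p14), 11 windows for 7 members.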

Additional observations from a re-analysis of the deposited data

Results flagged for a closer look

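In 56 groups of representative member values, 3 single arrays stood apart by Dixon's gap test at the 95% level, and chance alone flags about 1 in 20 groups. CAT in HEC replicate 7 read 11.48, the next highest HEC array 11.31 (gap over range 0.526, n = 9). DUOX2 in MALP2 replicate 6 read 4.41, the next lowest 6.41 (gap over range 0.696, n = 6). NOS2 in IMQ replicate 1 read 3.12, the next lowest 5.08 (gap over range 0.676, n = 6). DUOX2 and NOS2 are dim in these groups.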

How the results depend on the processing

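The counts of called member probesets with TNF-α (3), HEC and CMC (0 each) were the same under every alternative run. The count with imiquimod was 0 without its replicates 1 to 3, 2 with the random block of 3 consecutive numbers and 3 with that block and without GM replicate 15. Leaving out arrays gave counts of 3 to 3 (TNF-α), 4 to 5 (Pam3CSK4), 4 to 4 (MALP2), 0 to 3 (imiquimod, 3 with any single array out), 1 to 2 (N-9) and 0 to 0 (HEC and CMC). The second N-9 call was DUOX2, without N-9 replicate 1, 2 or 3. The count with Pam3CSK4 was also 4 with all 105 arrays, an offset of 16 or the random block. Read through other probesets, SOD2 with N-9 was log2 1.62 in 215078_at against -0.34 in 1566342_at, and DUOX1 with imiquimod was log2 -0.65 in 215800_at against 0.07 in 219597_s_at. The cause was not tested. Over 9 other settings of normalization, filter, block and control set, SOD2 in 1566342_at ranged from log2 2.40 to 2.67 with Pam3CSK4, 2.10 to 2.35 with MALP2, 1.83 to 2.16 with TNF-α and 1.25 to 1.50 with imiquimod, whose largest adjusted p was 0.094 with the run block. Leaving out GM replicate 15, alone or with that block, and the imiquimod subsets were alternatives chosen after seeing the data.

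Replicate numbers were not taken as pairs, since not every pair of arrays of the same number deviated together. Deviations correlated above 0.1 with those of the GM array for numbers 1 to 6 of N-9 (0.25 to 0.33) and HEC (0.26 to 0.34) and for 1 of 5 TNF-α numbers, below 0 for numbers 7 to 9 of N-9 and HEC, and at 0.076 or less for the other treatments. With the replicate block the counts were 3 (TNF-α), 5 (Pam3CSK4), 5 (MALP2), 4 (imiquimod), 1 (N-9) and 0 (HEC and CMC).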

Other observations

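The arrays left out carry their own SOD2 values. TNF-α replicate 6, the mean of 3 other arrays, has a deposited log2 value of 11.83 in 1566342_at and 11.76 in 215223_s_at. GM replicate 52 has 12.21 and 7.28 in the same probesets.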
